A study of Mus musculus with 12 samples.

Results

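The response of muscle cells to 24 h of tumour-conditioned medium was described from 2 of the 12 arrays of the series, those titled for C26 conditioned medium at 24 h in the treated and the untreated arm. The cells were C2C12 myotubes, the multinucleated cells into which the C2C12 line of mouse myoblasts fuses, differentiated for 3 days. The treated cultures received medium conditioned by C26 cells, a mouse colon tumour line with which muscle wasting in cancer is studied, as 1 part in 3 of the volume. The untreated cultures of the same experiment and time received no agent, so the tumour products and the replacement of part of the culture medium cannot be told apart. The series also holds arrays of the same medium at 4 and 8 h and of leukemia inhibitory factor (LIF), a relative of interleukin-6, given at 10 ng/ml and sampled at 4, 8 and 24 h, each with its own untreated array. By its title, the study concerns LIF in the cachexia of C26 tumours. Total RNA of 3 wells was pooled on each array, with 1 array a side. A difference at 24 h therefore has no replicate check, no test was possible, and the spread between wells is not known.

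Secreted tumour products can act on myotubes through several pathways. Interferons switch on antiviral genes through STAT2 and Irf9, and cytokines of the interleukin-6 family switch on Socs3 and other genes through STAT3. Shortage of amino acids, or stress of the endoplasmic reticulum, raises the transcription factor Atf4, which drives genes of amino acid uptake and of serine, cysteine and asparagine synthesis. Cultures of myotubes also keep unfused mononucleated cells, which can still divide, whereas nuclei inside a myotube have left the cell cycle.

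Values are log2 expression levels, and a difference is the treated minus the untreated level, so that a difference of 1 is 2-fold. Both 24 h arrays had a median level of 6.14 over 21187 genes. The SD of the differences over genes was 0.229 at 24 h, 0.187 at 8 h and 0.138 at 4 h, and it was 0.13 between the untreated 8 h and 4 h arrays. Levels that 5% of olfactory and vomeronasal receptor genes exceeded, 4.78 on the treated and 4.66 on the untreated array, served as the upper edge of the background. All 15 markers of differentiated skeletal muscle lay above it on both arrays, at a mean level of 11.38 with C26 medium and 11.31 untreated. In these pools, fewer cells of a type and less RNA per cell cannot be told apart. The mean level of 19 epithelial markers of the colon was 4.73 with C26 medium and 4.71 untreated, with 11 in the background on each array. The 16 markers of macrophages and leukocytes had means of 4.27 with C26 medium and 4.33 untreated. The mean of 16 markers of fibroblasts and unfused cells was 8.12 with C26 medium and 7.94 untreated.

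After 24 h, 50 genes were at least 2-fold higher with C26 medium and 33 at least 2-fold lower, which is 0.236% and 0.156% of all genes. Between the untreated 8 h and 4 h arrays 5 genes differed as much (0.0236%). Of the 1290 receptor genes that stand for background, 4 were 2-fold higher at 24 h and 0 lower. Counting any size of difference, 9790 of all 21187 genes lay above 0 at 24 h and 10306 below 0. Of the 50 higher genes 16 lay in the background of the untreated array, and of the 33 lower genes 10 lay in that of the treated array, which leaves the sizes of those differences uncertain.

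**Figure D1:**
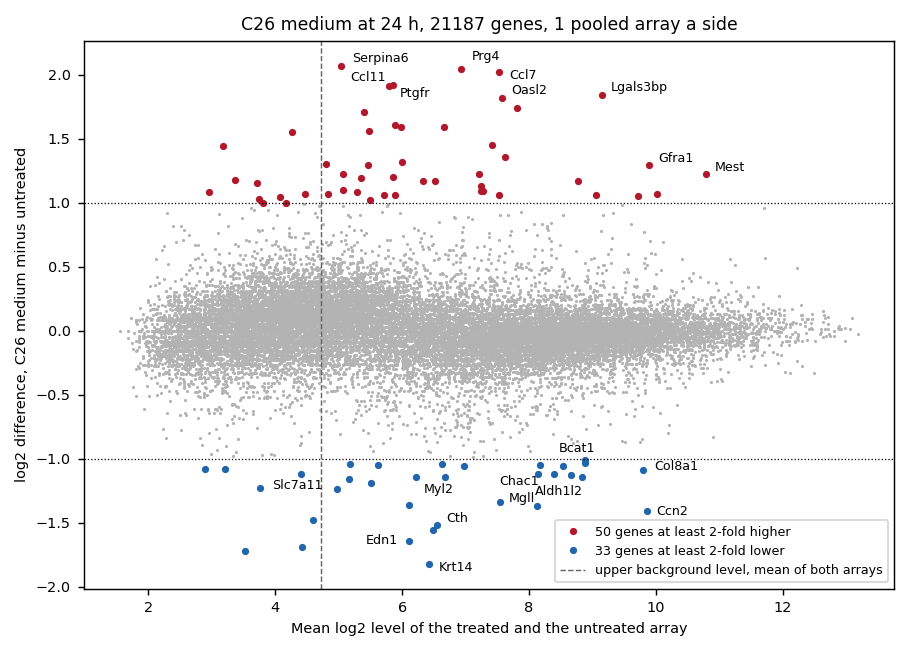
Difference at 24 h (vertical axis, log2, C26 medium minus untreated) against the mean level of both arrays (horizontal axis, log2) for 21187 genes, 1 pooled array a side. Red points are the 50 genes at least 2-fold higher and blue points the 33 at least 2-fold lower, and they run from Serpina6 at 2.07 to Krt14 at -1.82.

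All 33 lower genes were further from 0 at 24 h than at 8 h. At 8 h, 4 of the 33 lower genes were already 2-fold lower, against 0.0378% of all genes, and at 4 h 0 were (0.0% of all genes). Their median difference was -0.05 at 4 h, -0.42 at 8 h and -1.14 at 24 h. Of the 50 higher genes 22 were already 2-fold higher at 8 h, where 0.302% of all genes were, and 11 at 4 h (0.0755%). Their medians were 0.36, 0.86 and 1.19 at 4, 8 and 24 h. With the lower threshold of 1.5-fold, 189 of the 274 lower genes had been within 1.25-fold at both earlier times, and 107 of the 255 higher genes. Most genes of the array lay near or within that limit. Percentiles 1 and 99 of all differences were -0.35 and 0.37 at 4 h, and -0.41 and 0.51 at 8 h. The share of all genes within 1.25-fold at both times was not counted. Genes picked for their 24 h values tend to look smaller at other times, so these counts are descriptions. Each time has its own treated and untreated arrays, and no control array is shared.

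Genes of the amino acid response made up a late group. Promoters of several of its genes carry the CARE core TGATGNAA, the composite site bound by Atf4 with a C/EBP factor. These windows are shown for members of the list that were at least 1.5-fold lower and whose promoter holds the motif. Of the members at least 1.5-fold lower, 11 had a promoter sequence, and 5 of these held it. They come from RefSeq promoters of build GRCm38.p6 (250 bases before to 50 after a gene's start), are written 5′ to 3′ along the gene, and have a match to the motif or its reverse complement in capitals. The Slc7a11 window holds a further match in lower case. Slc7a11 (cystine transporter) is on the minus strand at chr3:50443652-50443699, Chac1 on the plus strand at chr2:119351029-119351076, Trib3 on the minus strand at chr2:152344028-152344057, Asns on the minus strand at chr6:7693205-7693252 and Pycr1 on the minus strand at chr11:120643824-120643871.
Slc7a11: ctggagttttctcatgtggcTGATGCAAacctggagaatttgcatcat
Chac1: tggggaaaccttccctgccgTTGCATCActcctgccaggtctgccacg
Trib3: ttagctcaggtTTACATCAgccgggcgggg
Asns: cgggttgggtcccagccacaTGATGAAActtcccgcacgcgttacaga
Pycr1: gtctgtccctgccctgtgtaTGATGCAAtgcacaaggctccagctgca
The motif, searched on both strands, was in 11 of 41 promoters of the list (26.8%), over 33 genes with a promoter in the table, and in 3.2% of the 19562 promoters of genes on the array. A match is a description of letters and not a measured binding site.

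Enzymes and transporters that supply cysteine and one-carbon units were the lowest of this list. Cth, which makes cysteine from cystathionine, had a level of 5.79 with C26 medium against 7.31 untreated, 2.87-fold lower. Slc7a11, which imports cystine, stood at 4.36 with C26 medium against 5.60 untreated. The treated value lay in the background. Aldh1l2, a folate enzyme of mitochondria, stood at 8.10 with C26 medium against 9.23 untreated. In each of these genes the treated culture was the low one by more than 2-fold, while the differences at 8 h were -0.16 for Cth, 0.08 for Slc7a11 and -0.04 for Aldh1l2. Chac1, which breaks down glutathione, had 7.83 with C26 medium against 8.95 untreated. Bcat1, the cytosolic enzyme that transfers the amino group of branched-chain amino acids, had 8.00 with C26 medium against 9.06 untreated. Both had been within 0.13 of 0 at 4 and 8 h.

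Of 39 members of the amino acid response, all measured, 14 were at least 1.5-fold lower and 0 higher, where 1.29% of all genes were as much lower. The list median was -0.55 at 24 h, against 0 over all genes, and it had been -0.03 at 4 h and -0.02 at 8 h. All 14 had been within 1.25-fold at both earlier times, as most genes of the array had. The pseudokinase gene Trib3 had a difference of -0.94, Asns, which makes asparagine, of -0.83, and Mthfd2, which handles one-carbon units in mitochondria, of -0.82. The serine pathway lay in the same direction at -0.75 for Psph, -0.63 for Phgdh and -0.46 for Psat1. The transcription factor gene Atf4 itself had a level of 8.66 with C26 medium and 8.89 untreated, a difference of -0.23, and Ddit3, another factor of the response, one of -0.33. At the other end of the list stood Cebpb (0.19), which encodes a C/EBP factor.

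**Figure D2:**
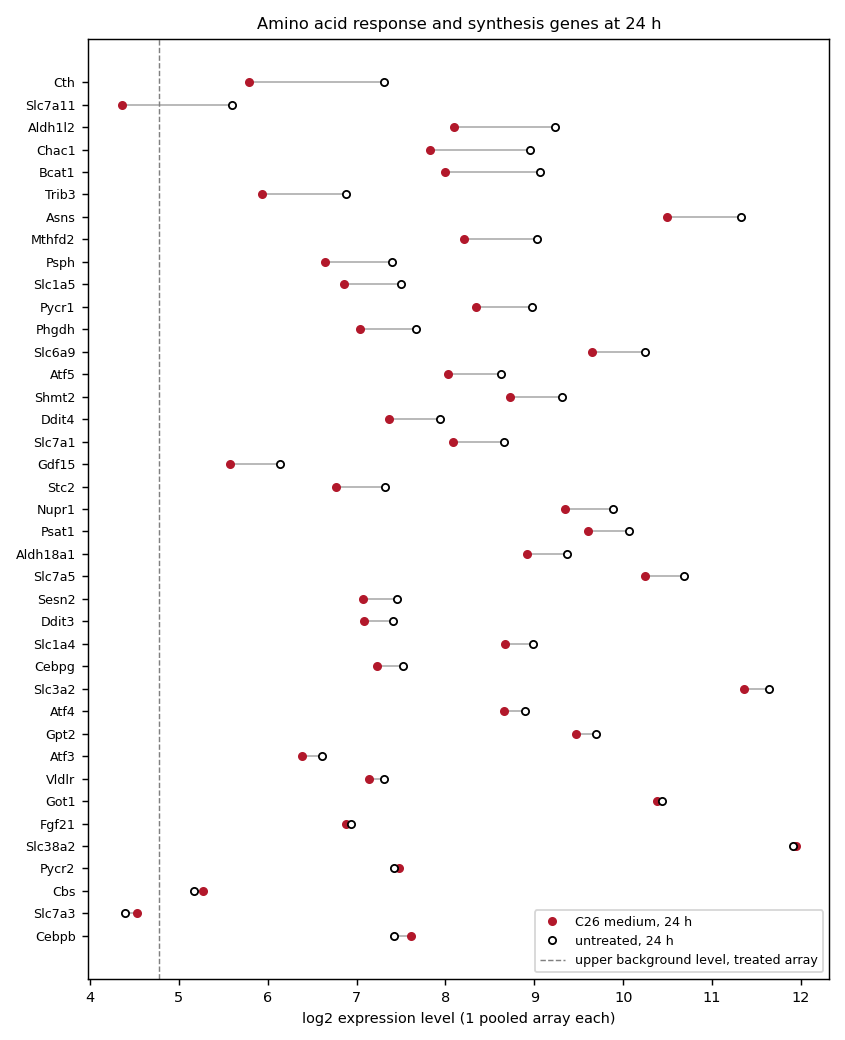
Level of the 39 amino acid response genes at 24 h (horizontal axis, log2; 1 pooled array each), with C26 medium as red points and untreated as open points. Of these genes 34 had the treated point left of the untreated one, with the widest gap at Cth (-1.52), and the dashed line is the background level of the treated array.

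Ranks within an array allow the times to be set side by side, since the 24 h arrays have another scale than the earlier ones. For this list the median rank, as the percentage of the array's genes lying lower, was 71.3, 71.3 and 69.1 with C26 medium at 4, 8 and 24 h. Untreated it was 72.0, 72.5 and 79.0. By rank the list thus stood higher in the untreated culture at 24 h than before, while its treated rank was slightly lower. Single genes varied in this. Cth ranked at 59.8, 60.0 and 46.5 with C26 medium and at 60.6, 61.8 and 61.7 untreated, so its low rank at 24 h was that of the treated culture. Trib3 ranked at 50.1, 53.9 and 48.1 with C26 medium and at 50.4, 52.1 and 57.2 untreated, with a higher untreated and a lower treated rank than at 8 h.

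Other biosynthetic genes were lower by less. Over all 21187 genes, 10306 were below 0. The cytosolic tRNA synthetases, which charge tRNAs with amino acids, had a median of -0.26, with 18 of 19 below 0 and 0 past 1.5-fold. Vars was lowest at -0.41, followed by Cars and Tars at -0.38 each. The 24 endoplasmic reticulum chaperones and unfolded protein response genes had a median of -0.11, with 24 below 0 and 0 past 1.5-fold. The oxidase gene Ero1a stood at -0.36 and the chaperone-like gene Manf at -0.23. For ribosome biogenesis the median was -0.18, with 29 of 31 below 0 and 0 past 1.5-fold. For nucleotide synthesis it was -0.19, with 22 of 25 below 0 and 1 at least 1.5-fold lower (1.29% of all genes). That gene was Tyms, which makes thymidylate, at 7.27 with C26 medium against 7.94 untreated.

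Cholesterol genes were another late group. The list of synthesis and uptake genes had a median of -0.31 at 24 h, against 0.03 at 4 h and 0.08 at 8 h. In it 23 of 24 members were below 0 (10306 of all 21187 genes were) and 2 at least 1.5-fold lower (1.29% of all genes). Insig1, the sterol-regulated anchor that holds SREBP in the endoplasmic reticulum, stood at 9.84 with C26 medium against 10.58 untreated. Cyp51, a demethylase of the pathway, stood at 9.49 with C26 medium against 10.08 untreated, and fell short of 1.5-fold with quantile or loess normalization. Both had been within 0.17 of 0 at 4 and 8 h. With LIF at 24 h the list median was 0.05. The median rank was 90.4 with C26 medium and 93.2 untreated at 24 h, and 92.4 with C26 medium and 92.5 untreated at 8 h.

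Fatty acid synthesis and lipid storage genes had a median of -0.06, and 1 of 26 was at least 1.5-fold lower (1.29% of all genes). This was Mgll, which releases fatty acids from monoglycerides, at 6.87 with C26 medium against 8.21 untreated; its difference was already -1.12 at 8 h. Genes that produce energy stayed near 0 as lists. The 30 glycolysis and hypoxia genes had a median of -0.03 and the 39 respiratory chain and ATP synthase genes one of 0.03, each with 0 past 1.5-fold. Glycolysis genes had a median of 0.12 at 8 h. Among genes of oxidative stress, Nqo1, a quinone reductase, stood at 5.74 with C26 medium against 6.55 untreated. The glutathione synthesis genes Gclc (-0.44) and Gclm (-0.43) did not reach 1.5-fold.

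Mitosis genes had the lowest median of all 42 pathway lists. Many of their promoters hold the CHR letters TTTGAA, the site through which the DREAM and MuvB complexes act on late cell cycle genes. These windows are from the same RefSeq table and build and are shown for kinases and spindle genes near the low end of the list, with the motif or its reverse complement in capitals. Bub1b lies on the plus strand at chr2:118598240-118598260, Aspm on the plus strand at chr1:139454768-139454795, Plk1 on the plus strand at chr7:122159454-122159481, Ttk on the plus strand at chr9:83834685-83834712 and Cenpf on the minus strand at chr1:189688068-189688095.
Bub1b: gagacgttaaaTTTGAAactt
Aspm: gaggcgcgataTTTGAAccgagcaaaag
Plk1: ccagcgccgcgTTTGAAttcggggagga
Ttk: agcggggaaatTTCAAAcgtgtttccgg
Cenpf: gcggcgggcagTTTGAAtcgctcgtgct
On either strand, these letters were in 25 of 34 promoters of the list (73.5%), over 32 genes with a promoter in the table, and in 15% of the promoters of all genes on the array. The CCAAT box was also in 73.5% of them, and in 37.6% of all.

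All 40 measured mitosis genes were below 0, from Bub1b (-0.86) to the phosphatase gene Cdc25b (-0.22), where 10306 of all 21187 genes were below 0. Bub1b, a kinase of the spindle checkpoint, stood at 6.85 with C26 medium against 7.71 untreated. Ect2, which directs the cleavage furrow, stood at 8.23 with C26 medium against 9.08 untreated. The spindle assembly factor Tpx2 stood at 7.29 with C26 medium against 8.12 untreated. In all 3 the treated culture was lower by about 1.8-fold. The proliferation marker Mki67 stood at 8.84 with C26 medium and 9.44 untreated, a difference of -0.60. The cell cycle kinase Cdk1 stood at 9.31 with C26 medium and 9.71 untreated, a difference of -0.40. In all, 26 of 40 mitosis genes were at least 1.5-fold lower, where 1.29% of all genes were, and 0 were 2-fold lower. The list median was 0.05, -0.04 and -0.64 at 4, 8 and 24 h. All 26 had been within 1.25-fold at both earlier times, as most genes of the array had. With LIF at 24 h the median was -0.3 and 0 of the 40 were at least 1.5-fold lower (0.486% of all genes were).

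The median rank of the mitosis list was 78.5, 77.5 and 64.0 with C26 medium at 4, 8 and 24 h. Untreated it was 77.7, 77.3 and 72.2, so the list ranked lower at 24 h on both sides, and further down with C26 medium. Replication genes lay on the same side. All 39 measured genes of DNA replication and S phase were below 0 (10306 of all 21187 genes were), with a median of -0.31. Of the 39, 2 were at least 1.5-fold lower (1.29% of all genes). These were Tyms and Pole, a catalytic DNA polymerase subunit (7.02 with C26 medium against 7.73 untreated). The helicase subunit gene Mcm3 had a difference of -0.56. Of 23 D cyclins, kinases and CDK inhibitors 2 were 1.5-fold lower (1.29% of all genes). One was Ccnd1, the cyclin that starts the passage through G1, at 8.37 with C26 medium against 9.38 untreated, with differences of -0.01, -0.33 and -1.01 at 4, 8 and 24 h. The other was the repressor gene E2f7 (-0.67). Cdkn1a, the inhibitor that keeps myotube nuclei out of the cycle, stood at 12.76 with C26 medium and 12.65 untreated.

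**Figure D3:**
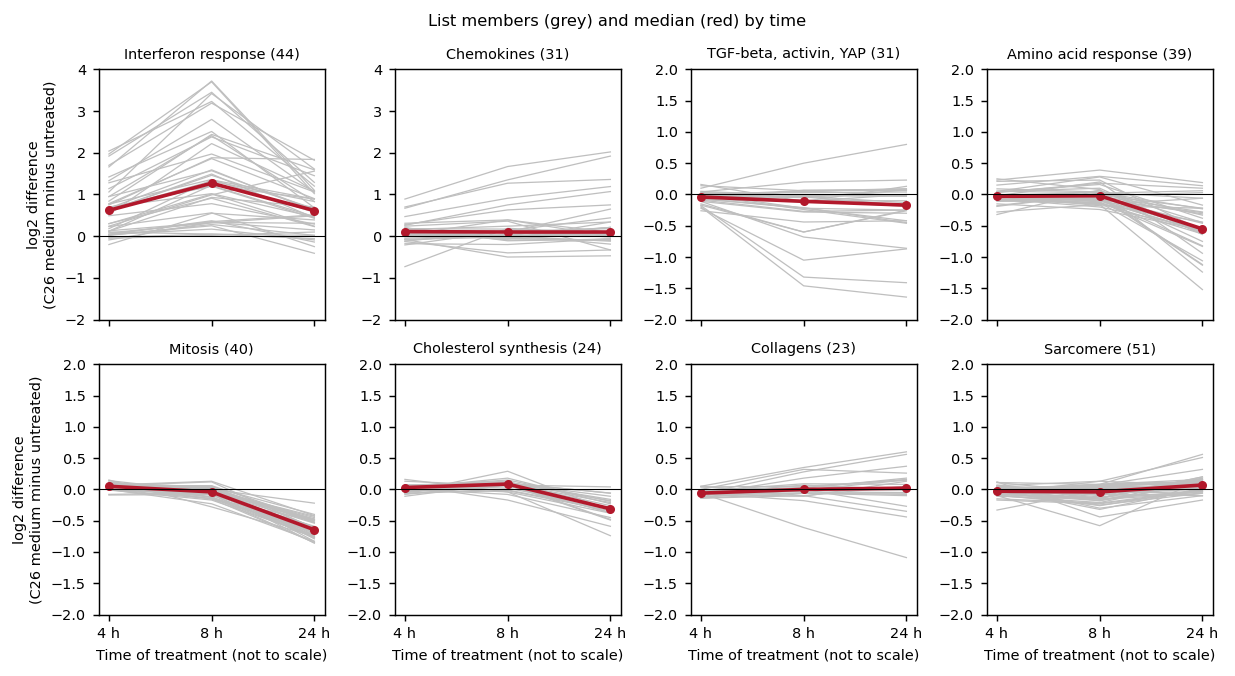
Difference from the untreated array of the same time (vertical axis, log2, C26 medium minus untreated) at 4, 8 and 24 h for 8 gene lists, with members in grey and the list median in red. The interferon and chemokine panels have a wider vertical scale. Amino acid, mitosis and cholesterol medians are near 0 at 4 and 8 h and at -0.55, -0.64 and -0.31 at 24 h, while the interferon median is 1.27 at 8 h and 0.62 at 24 h.

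Interferon genes were still higher at 24 h, most of them by less than at 8 h. Their shared promoter letters are those of the interferon-stimulated response element, with the core GAAANNGAAA, to which Irf9 with STAT2 binds. The windows show it in effector genes that were at least 1.8-fold higher, from the same table and build, with a match in capitals. The Ifit1 and Bst2 windows hold a further match that is wholly or partly in lower case. Ifit1 lies on the plus strand at chr19:34640784-34640833, Ifit3 on the plus strand at chr19:34583387-34583436, Irgm2 on the plus strand at chr11:58214893-58214942 and Bst2 on the minus strand at chr8:71537567-71537616.
Ifit1: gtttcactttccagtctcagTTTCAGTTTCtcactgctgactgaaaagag
Ifit3: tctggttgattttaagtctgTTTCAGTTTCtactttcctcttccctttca
Irgm2: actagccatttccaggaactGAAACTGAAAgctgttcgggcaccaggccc
Bst2: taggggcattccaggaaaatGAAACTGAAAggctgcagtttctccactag
The core was found on either strand in 16 of 37 promoters of the antiviral list (43.2%), over 31 genes, in 7 of 9 promoters of the interferon-inducible GTPases (77.8%), over 8 genes, and in 3.3% of all promoters.

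Lgals3bp, a secreted glycoprotein, had a level of 10.07 with C26 medium against 8.23 untreated, with differences of 0.75, 1.88 and 1.84 at 4, 8 and 24 h. Oasl2, of the oligoadenylate synthetase family, stood at 8.48 with C26 medium against 6.66 untreated, with differences of 1.70, 3.19 and 1.82. Ifit1, which binds foreign RNA, stood at 6.45 with C26 medium against 5.25 untreated, with differences of 2.04, 3.23 and 1.20. Lgals3bp thus kept its 8 h size, while Oasl2 and Ifit1 were nearer their 4 h size or below it. Ifi27l2a ran the other way, with differences of 0.24, 0.99 and 1.56. Among the factors that drive the response, Irf9 had 8.05 with C26 medium against 6.99 untreated, and Irf7 had 6.42 with C26 medium against 5.36 untreated. Usp18, which shuts off the interferon receptor, had 6.01 with C26 medium against 4.99 untreated, and its difference of 1.02 had been 3.70 at 8 h.

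Of 44 measured antiviral genes 23 were at least 1.5-fold higher and 0 lower, where 1.2% of all genes were as much higher, and 13 were 2-fold higher. The list median was 0.62 at 4 h, 1.27 at 8 h and 0.62 at 24 h, and 40 of the 44 had a smaller difference at 24 h than at 8 h. Ifit2 stood at 5.87 with C26 medium against 6.28 untreated, and Mx1 lay in the background on both arrays. With LIF at 24 h the median of the list was 0. Of 12 interferon-inducible GTPases, which attack the vacuoles of microbes, 4 were 1.5-fold higher: Irgm2 (1.22), Gbp3 and Igtp (0.92 each) and Gbp7 (0.62), and Irgm2 and Gbp3 lay in the background of the untreated array. No gene of the 25 for antigen presentation on MHC class I was past 1.5-fold, and the median was 0.18. Of the 25, 18 were above 0, where 9790 of all 21187 genes were. The peptide transporter gene Tap2 had 7.02 with C26 medium against 6.63 untreated. Ifit, Oas, Gbp and H2 genes have near-identical relatives that array probes may not separate, so their single values are uncertain.

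Some chemokine genes were higher with C26 medium at 24 h. Of the 31 measured, 22 had a greater value at 24 h than at 8 h, where 10139 of all 21187 genes had. Of the 31, 11 lay in the background on both 24 h arrays. Ccl7, which attracts monocytes, had 8.53 with C26 medium against 6.51 untreated, with differences of 0.89, 1.67 and 2.02 at 4, 8 and 24 h. Ccl11, which attracts eosinophils, had 6.82 with C26 medium against 4.90 untreated. Ccl2, the main attractant of monocytes, had 8.30 with C26 medium against 6.94 untreated. All 3 treated levels lay at least 2.5-fold above the untreated ones. Of 31 measured chemokine genes 7 were at least 1.5-fold higher (1.2% of all genes) and 0 lower, the others being Ccl8 (1.19), Cxcl5 (1.07, in the background when untreated), Cxcl14 (0.75) and Cxcl12 (0.65), and 12 lay in the background of the untreated array. The list median was 0.10 at 24 h and also at 8 h, so most members differed little. The 7 higher genes were picked by their 24 h values, which favours greater differences at 24 h than at 8 h.

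Other genes at the upper end had varied products. Prg4, the lubricating proteoglycan of joints, had 7.94 with C26 medium against 5.90 untreated. Ptgfr, the receptor of prostaglandin F, had 6.74 with C26 medium against 4.83 untreated. Bdkrb1, a bradykinin receptor that inflammation raises, had 9.35 with C26 medium against 8.18 untreated. The glial glutamate transporter gene Slc1a3 had 8.68 with C26 medium against 6.94 untreated. These differences were present by 8 h, at 1.70 for Prg4, 1.81 for Ptgfr, 1.45 for Bdkrb1 and 1.30 for Slc1a3. Later ones were Gfra1, the receptor of a neurotrophic factor, at 10.54 with C26 medium against 9.25 untreated and differences of 0.15, 0.60 and 1.29, and the imprinted gene Mest at 11.40 with C26 medium against 10.18 untreated and differences of 0.06, 0.29 and 1.22. Serpina6, which encodes the corticosteroid-binding globulin, had 6.07 with C26 medium and lay in the background at 4.00 untreated. Npy1r, a receptor of neuropeptide Y, had 5.45 with C26 medium and also lay in the background untreated. Further genes of this end were Cd7 (1.59), Gpm6b (1.22) and the phosphodiesterase gene Pde7b (1.13).

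Targets of STAT3 and NF-kB were mixed. Bcl3, which modifies NF-kB binding and is in both lists, had 8.34 with C26 medium against 7.41 untreated. Socs3, the feedback inhibitor of JAK kinases, had 8.76 with C26 medium against 7.92 untreated. The interleukin-4 receptor gene Il4ra had 10.23 with C26 medium against 9.62 untreated. These were the 3 of 40 genes of the STAT3 list at least 1.5-fold higher (1.2% of all genes were). In the same list 1 was lower (1.29% of all genes), the gene of LIF itself, at 6.11 with C26 medium against 7.15 untreated. The difference of Lif was -0.03, -0.42 and -1.04 at 4, 8 and 24 h. Among 32 NF-kB genes 1 was 1.5-fold higher, Bcl3, and 1 lower, the cyclooxygenase gene Ptgs2 (-0.59). With quantile or loess normalization 2 of these genes were 1.5-fold higher and 0 lower, with Ptgs2 at -0.55 and -0.56. The medians were 0.02 for either list.

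Among genes of plasma-type proteins, 22 of 32 in the acute phase list and 10 of 23 in the complement list lay in the background on both arrays. Over all genes 1.2% were at least 1.5-fold higher, the share beside which the next 3 counts stand. Of the acute phase genes 3 were 1.5-fold higher, among them Serpina6 and Saa3, both in the background of the untreated array. Saa3 had a level of 4.89 with C26 medium and 4.13 untreated. Of 23 complement genes 2 were 1.5-fold higher, the C1 inhibitor gene Serping1 (9.78 with C26 medium against 8.86 untreated) and C1qtnf1 (0.66), and the median was 0.19. Of 22 glucocorticoid targets 3 were higher: Serpina6, Hsd11b1, which regenerates active glucocorticoid (8.12 with C26 medium against 7.22 untreated), and Angptl4, an inhibitor of lipoprotein lipase (8.68 with C26 medium against 7.88 untreated). Fkbp5, a chaperone of the glucocorticoid receptor and a common marker of its activity, was on the other side at 6.52 with C26 medium against 7.41 untreated.

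Some genes controlled by TGF-beta, activin and YAP were lower from 8 h on. Ccn2, a matricellular growth factor, had 9.16 with C26 medium against 10.57 untreated. Edn1, the vasoconstrictor peptide endothelin, had 5.29 with C26 medium against 6.93 untreated. Their differences were -0.18, -1.32 and -1.41 for Ccn2, and -0.20, -1.46 and -1.64 for Edn1, at 4, 8 and 24 h. The activin subunit gene Inhba had 9.04 with C26 medium against 9.90 untreated. In all, 4 of 31 genes were at least 1.5-fold lower (1.29% of all genes), these 3 among them. In the same list 1 was higher (1.2% of all genes), the matrix gene Tgfbi (6.59 with C26 medium against 5.79 untreated). The list median was -0.17 at 24 h and -0.11 at 8 h, and -0.2 with LIF at 24 h.

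Growth factors that act through receptor tyrosine kinases lay on both sides. The EGF receptor ligands Ereg, at 5.10 with C26 medium against 6.15 untreated, and Hbegf, at 7.97 with C26 medium against 8.78 untreated, were lower. So were the early growth response factor Egr2 (-0.69) and the ligand Fgf2 (-0.60). In all, 5 of 49 were at least 1.5-fold lower (1.29% of all genes) and 2 higher (1.2%). Hgf, which activates satellite cells, was higher at 8.08 with C26 medium against 7.33 untreated. The lymphatic growth factor gene Vegfd was higher at 7.32 with C26 medium against 6.61 untreated. None of the 20 genes of the insulin-like growth factor axis was past 1.5-fold. Within it the binding protein gene Igfbp5 had a difference of 0.57. The growth factor gene Igf1 stood at 8.51 with C26 medium and 8.02 untreated.

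**Figure D4:**
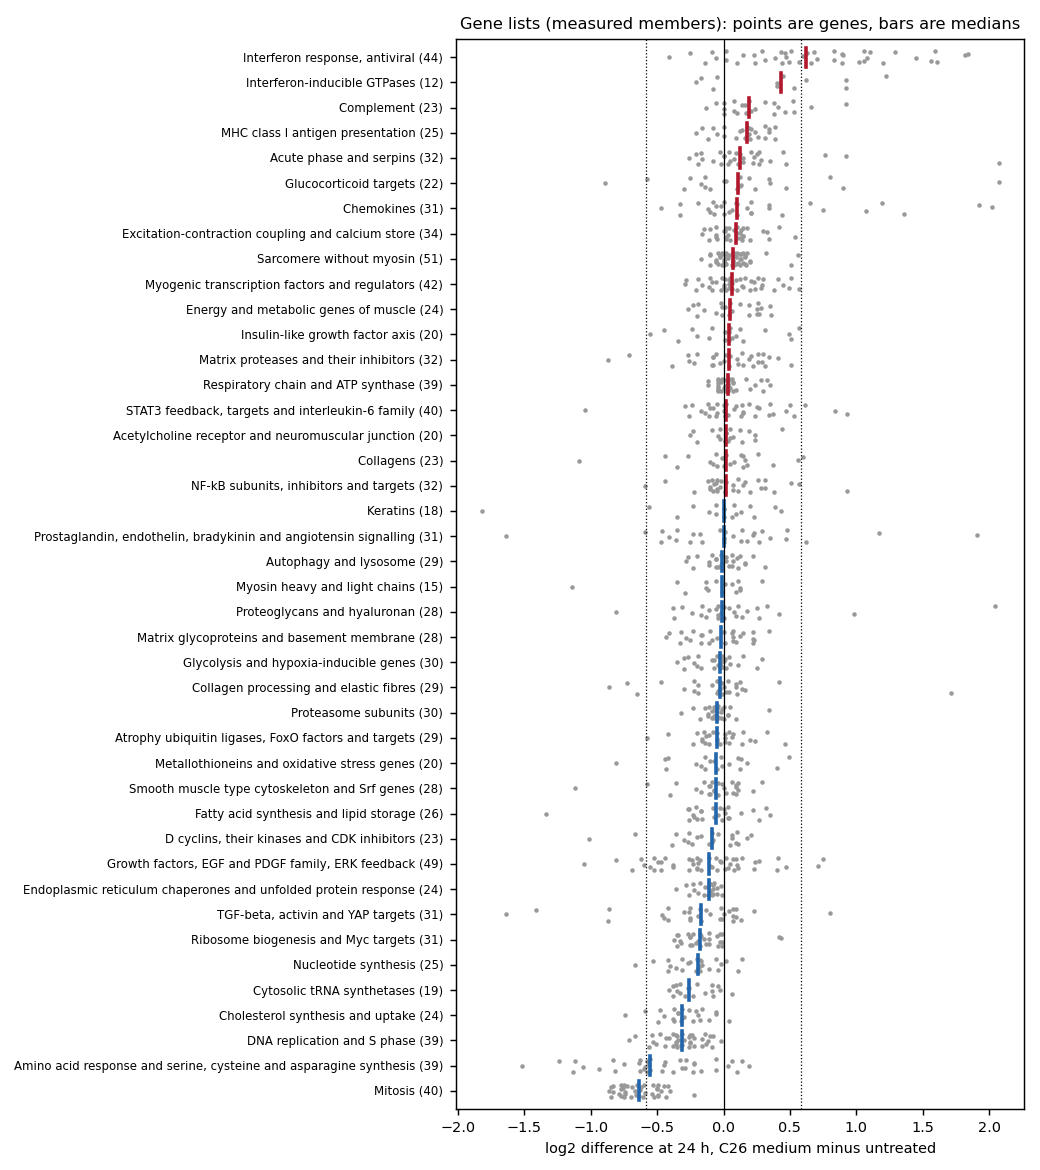
Difference at 24 h (horizontal axis, log2, C26 medium minus untreated) of the measured members of 42 pathway lists, ordered by the list median. Grey points are genes, bars are medians, and dotted lines mark 1.5-fold; the medians run from 0.62 for the antiviral list to -0.64 for mitosis.

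Matrix genes lay on both sides. Among 23 collagens Col3a1, a fibrillar collagen, had 10.29 with C26 medium against 9.69 untreated, whereas Col8a1, a short-chain collagen, had 9.25 with C26 medium against 10.34 untreated; these were the members past 1.5-fold, and the median was 0.02. Decorin (Dcn), which binds collagen fibrils, had 9.95 with C26 medium against 8.97 untreated, with differences of 0.16, 0.40 and 0.98 at 4, 8 and 24 h. With Prg4 it was 1 of 2 proteoglycans of 28 that were at least 1.5-fold higher (1.2% of all genes). Fibromodulin (Fmod) was lower, at 5.81 with C26 medium against 6.62 untreated. Elastic fibre genes lay on both sides as well. Efemp1, of the fibulin family, had 6.25 with C26 medium and lay in the background untreated, while its relative Fbln5 had 8.33 with C26 medium against 9.19 untreated and the microfibril genes Mfap5 (-0.73) and Mfap4 (-0.65) were lower too. The 3 lower ones had been within 1.25-fold at 4 and 8 h, as most genes of the array had.

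Of 28 matrix glycoproteins 0 were past 1.5-fold, with a median of -0.02, and thrombospondin 2 (Thbs2) stood at -0.43. Of 32 matrix proteases and inhibitors 2 were at least 1.5-fold lower (1.29% of all genes). Among them was the urokinase receptor gene Plaur (6.71 with C26 medium against 7.42 untreated). The metalloprotease gene Mmp19 stood at 0.51. The laminin chain gene Lamb3, outside these lists, had 8.26 with C26 medium against 9.40 untreated, with a difference of -0.32 at 8 h. The keratin gene Krt14 had 5.52 with C26 medium against 7.34 untreated and the lowest value of all ranked genes, and 9 of the 18 keratins lay in the background. Of the 16 markers of fibroblasts and unfused cells, 8 were above 0 and 8 below. Their median was 0.10, and -0.04 over the 12 above background on at least 1 array. At least 1.5-fold higher were 3 of the 16 (1.2% of all genes), Dcn, Col3a1 and Ly6a (12.18 with C26 medium against 11.22 untreated). The collagen gene Col1a1, another of these markers, had 9.96 with C26 medium and 10.06 untreated, and 4 of the 16 lay in the background on each array. Whether the share of such cells has a part in the result was not tested.

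Muscle genes showed small differences. Of 51 sarcomere genes outside the myosins 0 were past 1.5-fold, and the median was 0.07, against -0.04 at 8 h. Of the 51, 35 were above 0, where 9790 of all 21187 genes were. The skeletal actin gene Acta1 stood at 12.72 with C26 medium and 12.71 untreated. The giant protein titin (Ttn) stood at 11.50 with C26 medium and 10.99 untreated. Mybpc2, a myosin-binding protein of fast fibres, stood at 7.63 with C26 medium and 7.07 untreated, the widest difference of the list (0.56, and 0.62, past 1.5-fold, with quantile or loess normalization). Of 15 myosin genes 1 was at least 1.5-fold lower (1.29% of all genes), the light chain gene Myl2 of slow and cardiac muscle. It stood at 6.11 with C26 medium against 7.25 untreated, with differences of -0.02, -0.19 and -1.14 at 4, 8 and 24 h. The embryonic heavy chain gene Myh3 stood at 11.70 with C26 medium and 11.59 untreated. The fast heavy chain gene Myh1 stood at 10.93 with C26 medium and 10.99 untreated. The slow heavy chain gene Myh7 stood at 8.64 with C26 medium and 8.93 untreated. In the myosin list 7 genes were above 0 and 8 below.

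The lists of excitation-contraction coupling (34 genes), neuromuscular junction (20), muscle energy metabolism (24) and myogenic regulators (42) each had 0 genes past 1.5-fold, with medians of 0.09, 0.02, 0.05 and 0.06. Myod1, a factor that commits cells to muscle, stood at 10.64 with C26 medium and 10.44 untreated, and Myog, which drives differentiation, at 10.50 on both arrays. Pax7, the factor of satellite cells, stood at 9.38 with C26 medium and 8.93 untreated. The contractile genes shared with smooth muscle had a median of -0.06 over 28 genes, and 1 was at least 1.5-fold lower (1.29% of all genes). This was calponin (Cnn1), at 7.58 with C26 medium against 8.70 untreated and a difference of -0.71 at 8 h. Tagln, another actin-binding gene of smooth muscle, stood at -0.58.

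Genes of muscle breakdown also lay near 0. None of 29 atrophy ligases, FoxO factors and targets was past 1.5-fold, with a median of -0.05. The ubiquitin ligase gene Fbxo32 (atrogin-1) had 9.72 with C26 medium against 9.26 untreated, with differences of 0.03, 0.25 and 0.46 at 4, 8 and 24 h. The other main ligase of atrophy, Trim63 (MuRF1), had 7.66 with C26 medium against 7.62 untreated. In the same list Ddit4, an inhibitor of mTOR that also responds to amino acid stress, stood at -0.58. None of 29 autophagy and lysosome genes and none of 30 proteasome subunit genes was past 1.5-fold, with medians of -0.01 and -0.05.

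The remaining genes at the lower end belong to no single list. The receptor F2rl2, related to the thrombin receptor, had 5.42 with C26 medium against 6.78 untreated. The chemokine receptor gene Cxcr6 had 4.91 with C26 medium against 6.10 untreated. Lgr6, a receptor of R-spondins, had 5.65 with C26 medium against 6.79 untreated. The orphan receptor gene Gpr176 had 6.45 with C26 medium against 7.51 untreated. All 4 receptors were already lower at 8 h, with differences between -0.84 (F2rl2) and -0.73 (Cxcr6). The Golgi protein gene Gask1b had 5.71 with C26 medium against 7.27 untreated. The protease gene Ctsw had 7.64 with C26 medium against 8.69 untreated. Klrb1a, Raet1d, Ptprb and Cyp3a44 lay in the background of the treated array, and Klrb1a, Raet1d and Cyp3a44 belong to gene families with near-identical copies.

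LIF at 24 h offers a side-by-side view, from arrays of another experiment with values rounded to 0.1. Of the 50 genes 2-fold higher with C26 medium, 3 were 2-fold higher or lower with LIF, against 0.142% of all genes, and of the 33 lower genes 3 were. The sign was the same in 32 of the 50 and in 31 of the 33. A LIF difference that was 0.0 after rounding, such as that of Lgals3bp, counted as not the same. The share of all genes with the same sign was not counted, so these counts have no background beside them. The median LIF difference was 0.35 for the higher and -0.4 for the lower genes. Prg4 had a difference of 2.04 with C26 medium and 2.7 with LIF, and Ptgfr one of 1.91 with C26 medium and 1.5 with LIF. Matrix and growth factor genes gave close values: Dcn had 0.98 with C26 medium and 1.0 with LIF, Col8a1 had -1.09 with C26 medium and -1.1 with LIF, and Ereg had -1.05 with C26 medium and -1.1 with LIF. Antiviral and amino acid genes did not: Oasl2 had 1.82 with C26 medium and -0.1 with LIF, Cth had -1.52 with C26 medium and -0.1 with LIF, and Chac1 had -1.12 with C26 medium and -0.1 with LIF. These differences between the agents were not tested. The lists of amino acid response and mitosis had LIF medians of -0.1 and -0.3. Across the 14520 genes above background, the Pearson correlation of the differences with C26 medium at 24 h was 0.45 with those at 8 h, 0.04 with those at 4 h and 0.22 with those of LIF at 24 h. Spearman's correlation was lower, at 0.31, -0.1 and 0.09. Each runs across genes, which are not independent replicates, and the comparisons share no array.

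**Figure D5:**
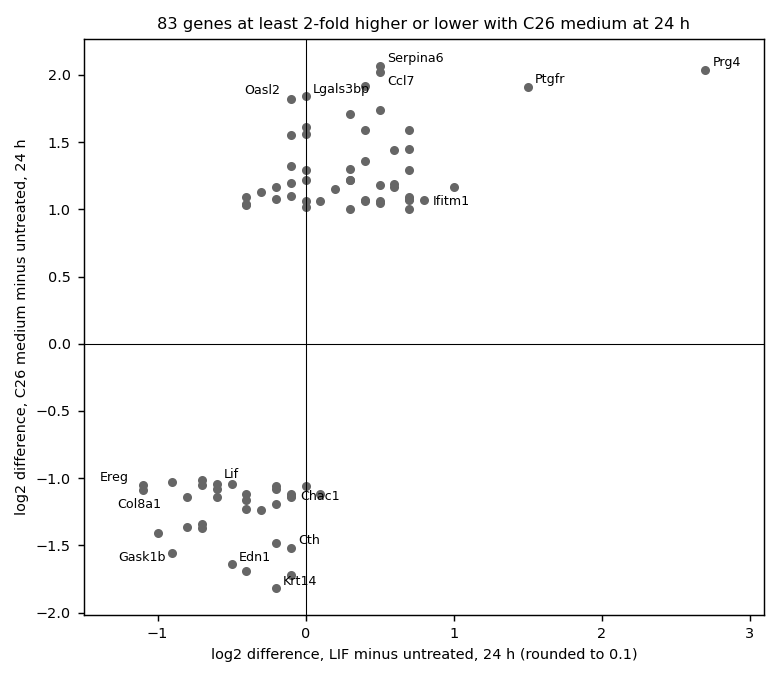
Difference at 24 h with C26 medium (vertical axis, log2) against that with LIF (horizontal axis, log2, rounded to 0.1), each minus its own untreated array, for the 83 genes at least 2-fold higher or lower with C26 medium. Prg4 and Ptgfr lie far to the right and Col8a1 and Ereg far to the left, while Oasl2, Lgals3bp, Cth and Chac1 lie within 0.1 of the LIF zero line.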

How the data were processed

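Expression was measured on Affymetrix mouse gene 1.0 ST arrays of C2C12 myotubes, 1 array per agent, arm and time, grouped by title. The deposited series table gives log2 values, made by the authors with RMA per the submitters' processing notes; for its version, the probe sets and the genome build, nothing is given in the sources used here. Values have 2 decimals in the C26 medium experiment and 1 in the LIF experiment. The authors' deposited table also holds signed fold changes, named a score here, which lay within 0.02 of the log2 differences for 100% of genes and served as an alternative. Another 12 per-sample columns in the deposited tables were left unused. Entrez identifiers of 20819 genes matched RefSeq GRCm38.p6, which gave the symbols.

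Values were used as deposited, unfiltered. With 1 array a side no test, interval or SD between samples was computed; an SD given is over genes, and the single arrays limit the precision. Counts used 2-fold, and 1.5-fold for lists, of which there were 42 pathway and 6 marker lists; a gene may be in several. Named genes were the 25 highest and 25 lowest, leaving out predicted, receptor, small RNA, immunoglobulin and histone genes and genes in the background on both arrays, and the 6 members of each list farthest from 0. Other list members, such as Atf4, Ddit3, Mthfd2, Psph, Phgdh, Psat1, Pycr1, Plk1, Ttk, Cenpf, Mki67, Cdk1, Cdc25b, Cebpb, Irf7, Irf9, Usp18, Bst2, Ifit2, Ifit3, Mx1, Fgf2, Acta1, Myh1, Myh3, Myod1, Myog, Trim63, Cdkn1a and Col1a1, were chosen after their values were seen. A few members of the lists are counted but not reported here by name. The members, lists and tests were chosen with earlier results of these data known. The counting was tested on simulated data with less added noise than the spread between the arrays here. That test covers the counting itself and gives no rate of false calls. Python 3.11.15, pandas 2.3.3 and statsmodels 0.14.6 were used. Alternatives were other fold thresholds, filters on dim genes, centring, quantile and loess normalization, rounding to 1 decimal and the authors' fold changes.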

Additional observations from a re-analysis of the deposited data

Results flagged for a closer look

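The list of MHC class I antigen presentation had a median of 0.18 with C26 medium and -0.1 with LIF at 24 h. The receptor genes that stand for background also had a LIF median of -0.1, and one of 0.0 with C26 medium. The difference between the agents was not tested, each value comes from 1 pooled array a side, and the LIF values are rounded to 0.1.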

How the results depend on the processing

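With other fold thresholds, 255 genes were higher and 274 lower at 1.5-fold, and 12 higher and 4 lower at 3-fold. Without the dimmest 50% of genes 21 were 2-fold higher and 19 lower; the other 7 changes of setting and the authors' fold changes gave between 34 and 61 higher and between 29 and 45 lower. The 1152 recomputed differences of named genes kept their sign and moved by less than 0.13, the SD over genes between the untreated 8 h and 4 h arrays, and 236 of 240 list medians moved by less than that; the 4 others were of marker lists. Of the 240 medians 9, of 5 lists, changed sign, all within 0.13 of 0: those of elastic fibres (-0.03 as deposited) and autophagy (-0.01) were 0.01 and 0.02 with quantile or loess normalization, and those of the colon, fibroblast and adipocyte markers (0.08, 0.10 and 0.05) were below 0 under at least 1 alternative. Quantile or loess normalization shifted a gene by at most 0.11 and left 21 mitosis genes 1.5-fold lower. Among all list members, 11 genes lost and 8 gained the 1.5-fold call with quantile normalization, and 13 lost and 7 gained it with loess, among them Phgdh, Mki67, Cyp51, Gbp7, Fgf2 and Ptgs2, which lost it with both. No paired analysis was possible because each group holds 1 array and the groups share fewer than 2 replicate numbers. Signal near background limits what can be read for dim genes, and 6667 of the 21187 genes lay in the background on both arrays.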
